A study of Mus musculus with 4 samples.

Results

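RNA of RAW 264.7 cells lacking Hnrnpul1 was compared with RNA of wild-type RAW 264.7 cells, both untreated. RAW 264.7 is a macrophage-like line derived from a mouse tumour. The series held 4 polyadenylated RNA libraries, of which 2 make up this comparison: 1 of untreated wild-type cells and 1 of untreated Hnrnpul1-/- cells. The other pair, of the same genotypes, had received LPS (lipopolysaccharide, a molecule of the bacterial outer membrane that TLR4 detects) at 100 ng/ml over 10 h. It shares no library with the untreated pair, and its values are set beside the results. All 4 groups share the cell line and the extraction method, and the labels do not say how the knockout was made or whether it was 1 clone. As each group held 1 library, no replicate spread is known, and a difference between these libraries is not a test of the genotype.

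Levels are in CPM, the read count scaled to the size of its library, after trimmed-mean (TMM) scaling over all 4 libraries. Genes with a mean of at least 1 CPM over these were kept, 11640 of 54532 in the deposited table. A log2 ratio of knockout to wild type was formed for 11569 of them, as the other 71 had at most 3 reads in both untreated libraries. Each ratio carries an exact 95% counting interval (Clopper-Pearson, in parentheses). These intervals cover counting error only, and since the labels name no molecular identifiers, several reads can stem from 1 molecule. A gene is called higher or lower where its ratio was at least 2-fold and the interval excluded no change. A count of 0 was set to a floor of 3 reads, and "at least" then marks the fold at that floor. The counting interval of such a gene begins nearer to no change than that fold. Where 4 read counts are listed, they run from wild type to knockout without LPS and then from wild type to knockout with LPS, and in a pair of counts wild type comes first. In a bulk culture, fewer cells with a transcript and less of it per cell cannot be told apart.

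The product of Hnrnpul1 is a nuclear protein that binds RNA and is related to hnRNP U. It is known for its part in the repair of DNA breaks, where it helps to trim broken ends, and for binding the small ribonucleoprotein that processes histone messenger RNAs. Macrophages, the cells that the line models, sense microbes, take up particles through Fc and scavenger receptors, and can present antigen on class II molecules when the transactivator CIITA is made.

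The wild-type library held 17162124 reads and the knockout library 17361615. Of 10 macrophage markers, 8 had a ratio and none was called. Their summed level was 3695 CPM in the wild-type library and 3163 CPM in the knockout library, with the largest share from Lyz2, lysozyme (30142 and 21567 reads, ratio -0.51). Csf1r, the receptor of the growth factor M-CSF, had a ratio of -0.05, and Cd14, the LPS co-receptor, 0.09. Mertk had 0 reads in both libraries, and Mrc1 had 0 and 1. Markers of other cell types were near the limit of detection. The 8 neutrophil markers summed to 2 and 0 reads, the 8 B cell markers to 23 and 4, the 8 fibroblast markers to 0 and 4, and the 6 epithelial markers to 0 in both. T cell markers summed to 119 and 113 reads, of which Lck gave 69 and 49, while Cd3d had 0 and 3 and Cd4 had 0 in both.

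The targeted gene itself (ENSMUSG00000040725; GRCm38, chromosome 7, 25721165 to 25754757, minus strand) had 5086, 447, 3114 and 350 reads. Both knockout libraries were far below both wild-type libraries, and the untreated ratio was -3.54 (-3.68 to -3.40). Its relatives lay close to 0. Hnrnpul2 had a ratio of 0.13 (0.07 to 0.18), and Hnrnpu a ratio of -0.09 (-0.11 to -0.06).

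Most of the transcriptome lay close to the line of no change. The median log2 ratio over all genes was 0.007, and the quartiles were -0.10 and 0.12. Among 8780 genes with a mean of at least 10 CPM, 97.8% were within 1.5-fold. In all, 134 genes were called higher in knockout, 1.16% of those with a ratio, and 100 were called lower, 0.864%, so that 2.02% were called in either direction. Called differences of 5-fold or more numbered 18 higher and 8 lower.

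The called genes were scarce transcripts. Their median untreated level was 1.88 CPM for those higher and 2.24 CPM for those lower, against 33.2 CPM over all genes. Of 4480 genes at 50 CPM or more, 3 were called (0.0670%): Cd24a higher, and Hnrnpul1 and Ctsh lower. Between 5 and 50 CPM, 46 of 5135 genes were called (0.896%). Between 1 and 5 CPM, 151 of 1700 were called (8.88%), and below 1 CPM, 34 of 254 (13.4%). Counting intervals are widest at the low end, and how libraries of 1 genotype vary there was not measured.

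**Figure D1:**
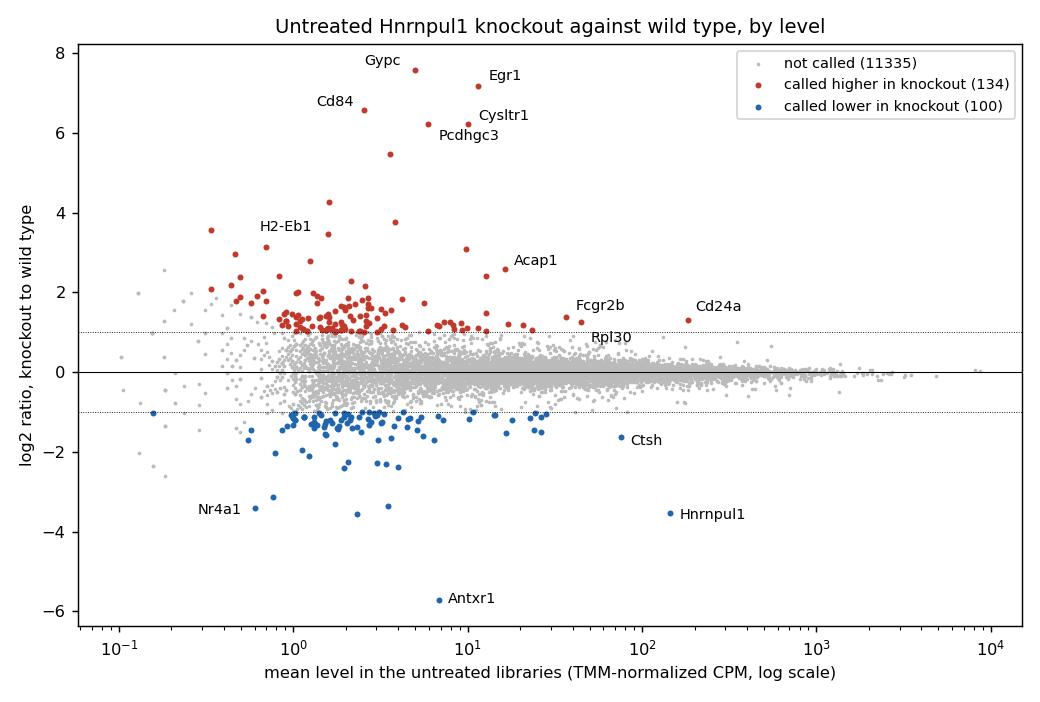
Log2 ratio of untreated knockout to untreated wild type (vertical axis) against the mean level in the 2 untreated libraries in TMM-normalized CPM (horizontal axis, log scale). Each point is a gene, red where called higher (134), blue where called lower (100) and grey where not called, with dotted lines at 2-fold. Called genes lie mostly to the left of the median level of 33.2 CPM, and at 50 CPM or more the called points are Cd24a, Hnrnpul1 and Ctsh.

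The genes with the largest ratios were nearly silent in 1 genotype, and most were so in the LPS pair too. Gypc, encoding glycophorin C, a membrane protein that anchors the cytoskeleton, had 1, 193, 9 and 329 reads. It was high in both knockout libraries and almost unread in both wild-type libraries (7.56, 5.07 to 12.88). Egr1, an immediate early transcription factor, had 0, 443, 0 and 1530 reads. No read of Egr1 was found in either wild-type library, and its level untreated was at least 145-fold higher in knockout (7.18, interval from 6.87).

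Cysltr1, a receptor for cysteinyl leukotrienes, had 5, 383, 1 and 241 reads, a ratio of 6.23 (5.00 to 7.86). Cd84, a SLAM-family receptor that binds itself between cells, had 1, 97, 5 and 59 reads, a ratio of 6.57 (4.06 to 11.89). Nedd4l, a ubiquitin ligase, had 3, 135, 6 and 94 reads, a ratio of 5.46 (3.89 to 7.76). For these 3 genes the LPS pair ran the same way, with ratios of 7.84, 3.49 and 3.90. Arntl2, a clock-related transcription factor, had 10, 139, 13 and 148 reads (3.77, 2.85 to 4.86).

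On the lower side stood Antxr1, a cell surface receptor that binds collagen and anthrax toxin. It had 256, 5, 250 and 6 reads, so that 1.92% of the wild-type level was left untreated (-5.71, -7.34 to -4.46). Stc1, the secreted hormone stanniocalcin 1, had 121, 12, 54 and 9 reads (-3.36, -4.35 to -2.50). Gja1, the gap junction protein connexin 43, had 127, 25, 73 and 19 reads (-2.37, -3.05 to -1.75). Inava, an adaptor of pattern receptor signalling, had 81, 7, 32 and 4 reads (-3.56, -4.92 to -2.45). All 4 were also lower in knockout within the LPS pair. Nedd4l, Arntl2, Stc1, Gja1 and Inava are outside the naming rule and were chosen after their values were seen.

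**Figure D2:**
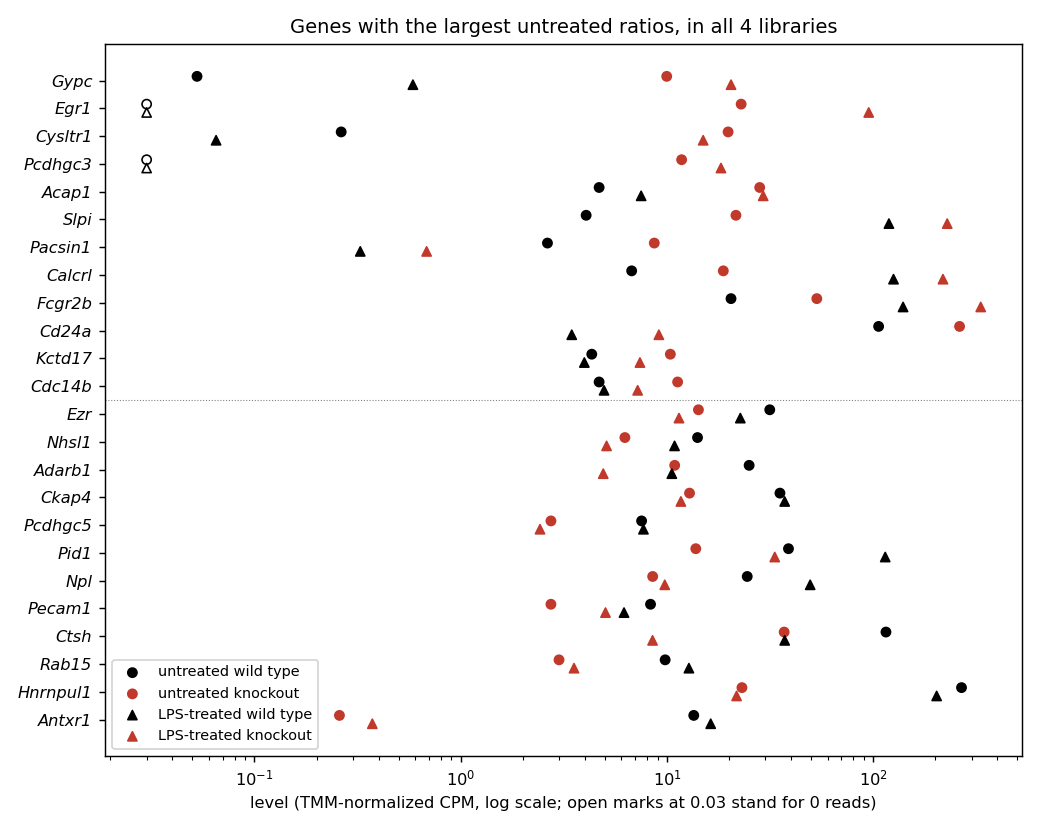
Levels in TMM-normalized CPM (log axis) of Hnrnpul1 and of the protein-coding genes with the largest called ratios among those with at least 5 CPM over the untreated libraries, 1 row per gene. Black marks are wild type and red marks knockout, circles untreated and triangles LPS-treated, and open marks at the left edge stand for 0 reads. Egr1 and Pcdhgc3 have open marks in both wild-type libraries, and for Slpi, Calcrl and Fcgr2b the LPS-treated marks lie to the right of the untreated ones in both genotypes.

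Among genes at 5 CPM or more, several with smaller ratios encode surface proteins. Cd24a, a small sialic acid-bearing surface protein, had 2016 and 5074 reads untreated and 53 and 147 with LPS. Its untreated ratio was 1.30 (1.23 to 1.38) and its LPS ratio 1.40, although the knockout level was 262 CPM untreated and 9.13 CPM with LPS. Fcgr2b, the inhibitory Fc receptor for IgG, had 388 and 1031 reads untreated and 2141 and 5343 with LPS (1.38, 1.21 to 1.55). Both kept knockout above wild type within each treatment.

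Calcrl, a receptor subunit for adrenomedullin and CGRP, had 128 and 363 reads untreated and 1924 and 3505 with LPS (1.48, 1.18 to 1.78). Itgal, the alpha chain of the integrin LFA-1, had 243 and 559 reads untreated and 1854 and 5660 with LPS (1.17, 0.95 to 1.40). Pacsin1, a membrane-bending protein of endocytosis, had 50 and 168 reads untreated and 5 and 11 with LPS (1.72, 1.26 to 2.21). In each of these the knockout library was the higher of its pair, with LPS ratios of 0.80, 1.54 and 1.07. Acap1, a GTPase-activating protein of recycling endosomes, had 89 and 545 reads untreated (2.59, 2.26 to 2.93).

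Among genes lower in knockout, Ctsh, a lysosomal cysteine protease, had 2188 and 716 reads untreated and 571 and 137 with LPS (-1.64, -1.76 to -1.52). Pid1, an adaptor that binds lipoprotein receptor tails, had 737 and 267 reads untreated and 1754 and 536 with LPS (-1.49, -1.70 to -1.29). Ckap4, a protein of the endoplasmic reticulum that also serves as a receptor at the surface, had 670 and 249 reads untreated and 571 and 188 with LPS (-1.46, -1.67 to -1.24). The 3 genes were lower in knockout in both pairs. Adarb1, the RNA-editing enzyme ADAR2, had 475 and 211 reads untreated and 162 and 79 with LPS (-1.20, -1.44 to -0.96). Ezr, the membrane-cytoskeleton linker ezrin, had 598 and 275 reads untreated and 348 and 184 with LPS (-1.15, -1.36 to -0.94). Ezrin and ADAR2 transcripts were thus below wild type in both pairs, with LPS ratios of -0.99 and -1.10. Also among the largest ratios were those of Slpi, a secreted protease inhibitor (77 and 418 reads, 2.41), Kctd17 (82 and 201, 1.27) and the phosphatase gene Cdc14b (89 and 218, 1.26) on the higher side, and Rab15, a GTPase of endosomes (186 and 58, -1.71), and Nhsl1 (267 and 121, -1.17) on the lower side.

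Genes with an antiviral role lay mostly above 0 in untreated knockout cells. Over 4 lists (IFIT and other effectors, the OAS family, interferon-inducible GTPases and the Schlafen family), 51 of 66 members had a ratio, and 46 of these were above 0. Of them, 6 were called higher (background 1.16%) and 0 lower, and the median was 0.50. Of the 6, only Ifi44 was at 5 CPM or more untreated, and Ifit3 and Slfn5 passed the filter on level through the LPS-treated libraries. Over all genes, 85 of 1700 between 1 and 5 CPM were called higher, and 22 of 254 below 1 CPM. Over all genes 52.0% were above 0 and the median was 0.007. Among the 28 members with at least 5 CPM untreated, 25 were above 0 and the median was 0.34. With LPS, the median of the 51 members was -0.04.

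The OAS family, enzymes that double-stranded RNA switches on, was above 0 for 10 of 10 members with a median of 0.66, and none was called. Oas3 had 758 and 1302 reads untreated (0.75, 0.62 to 0.88), and Oas2 had 294 and 495 (0.72, 0.51 to 0.94). With LPS their ratios were -0.03 and -0.50.

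Among IFIT and other effectors, 22 of 26 members were above 0 with a median of 0.39, and 4 were called higher. Ifi44 had 194 and 460 reads (1.22, 0.97 to 1.47), and its neighbour Ifi44l had 31 and 70 (1.15, 0.52 to 1.81). Rsad2, the enzyme viperin, had 10 and 25 reads, and Ifit3, which has a near-identical copy that could take some of its reads, had 2 and 16. These last calls rest on few reads: Ifit3, Rsad2 and the Schlafen gene Slfn5 lay below 1 CPM untreated, where 13.4% of genes were called in either direction. With LPS each of the 4 called effector genes had 2542 reads or more per library and ratios from -0.23 to 0.31. Ifitm3, a membrane protein that hinders viral entry, was among the few below 0, with 10466 and 8790 reads (-0.28, -0.32 to -0.24).

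Of 8 interferon-inducible GTPases with a ratio, 7 were above 0, and Irgm2, which acts on pathogen vacuoles, was called at 38 and 78 reads (1.01, 0.43 to 1.61). All 7 Schlafen genes with a ratio were above 0, and Slfn5 was called. It had 0 and 13 reads untreated, at least 4.25-fold higher, and 705 and 2346 reads with LPS. Of 14 IRF and STAT factors, 13 were above 0 and none was called, with a median of 0.14. Irf7, the factor that drives interferon alpha genes, had 80 and 138 reads (0.76, 0.35 to 1.17), and Irf9, the DNA-binding part of ISGF3, had 482 and 727 (0.56, 0.40 to 0.73). Of 14 nucleic acid sensors, 10 were above 0 and none was called. The RNA sensor gene Ddx58 had 301 and 504 reads (0.72, 0.51 to 0.93).

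**Figure D3:**
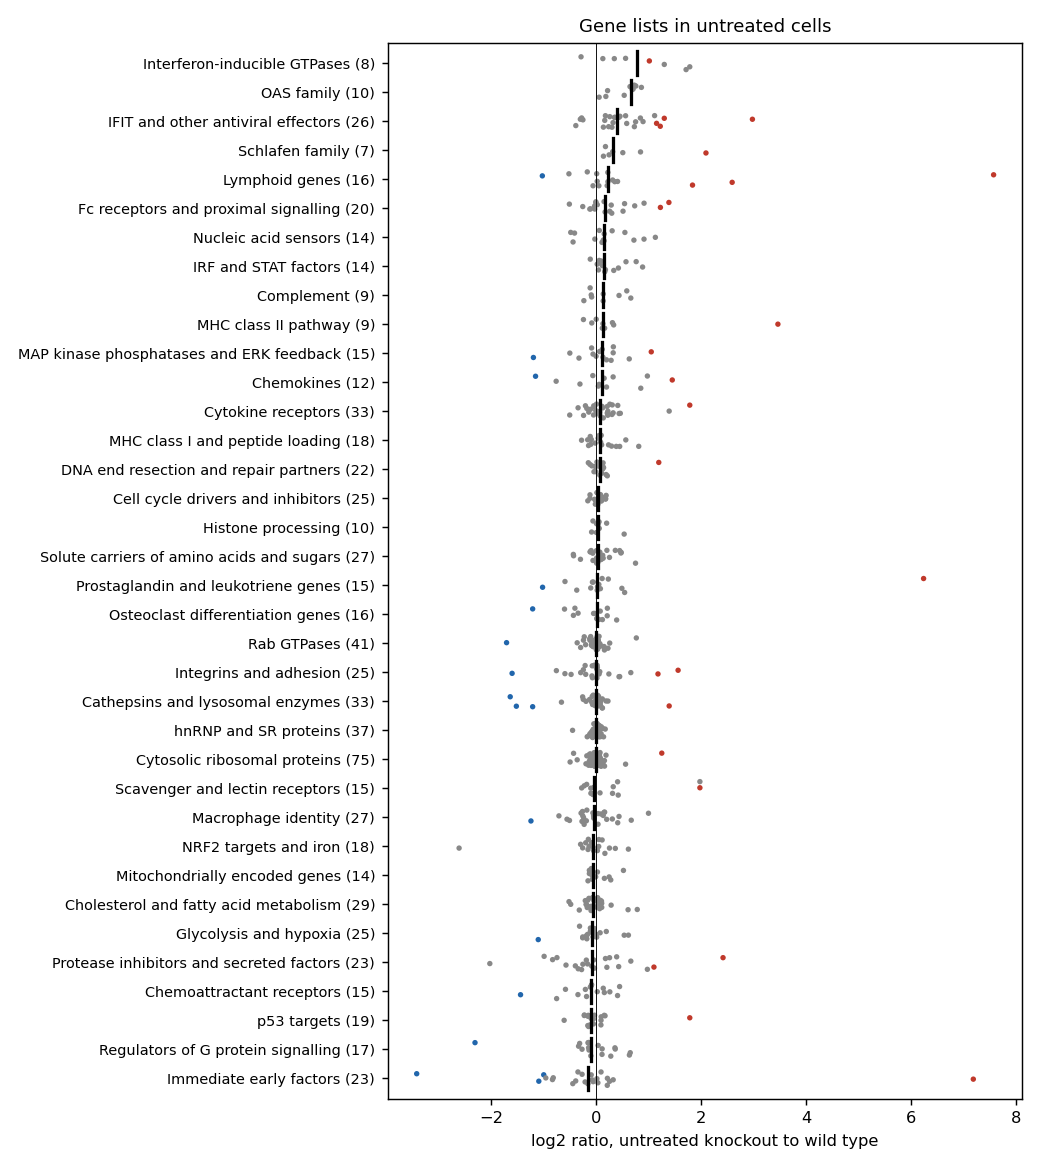
Log2 ratios of untreated knockout to wild type (horizontal axis) for every member with a ratio in the gene lists shown, each with at least 5 of them, 1 row per list, with the number of such members in parentheses and the black bar at their median. Red points were called higher, blue points lower and grey points not called. Interferon-inducible GTPases (median 0.78) and the OAS family (0.66) lie at the top and immediate early factors (-0.16) at the bottom.

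The DNA just before the start of some of these genes is shown, with that of the chemokine gene Cxcl10 from another list, because interferon-responsive promoters carry a repeat that the ISGF3 and IRF factors bind. Sequences are the 250 bases before the RefSeq start (GRCm38.p6), written 5′ to 3′ along the gene's own strand. Capitals mark a pair of GAAA runs with any 2 bases between them, on either strand, so that the pair reads as TTTC runs where it lies on the other strand. The windows are Rsad2 at chr12:26456453-26456702 (minus strand), Ifit3 at chr19:34583279-34583528 (plus), Cxcl10 at chr5:92348890-92349139 (minus) and Irgm2 at chr11:58214727-58214976 (plus).
Rsad2: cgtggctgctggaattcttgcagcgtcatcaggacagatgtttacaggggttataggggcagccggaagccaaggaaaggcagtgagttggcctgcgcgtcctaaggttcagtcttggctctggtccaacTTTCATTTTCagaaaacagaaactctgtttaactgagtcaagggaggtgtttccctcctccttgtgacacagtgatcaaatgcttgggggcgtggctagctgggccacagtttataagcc
Ifit3: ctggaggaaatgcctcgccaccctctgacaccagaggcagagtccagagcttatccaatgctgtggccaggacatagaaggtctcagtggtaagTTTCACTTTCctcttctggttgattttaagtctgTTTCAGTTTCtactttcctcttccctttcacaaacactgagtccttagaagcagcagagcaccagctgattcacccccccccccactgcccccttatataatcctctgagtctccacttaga
Cxcl10: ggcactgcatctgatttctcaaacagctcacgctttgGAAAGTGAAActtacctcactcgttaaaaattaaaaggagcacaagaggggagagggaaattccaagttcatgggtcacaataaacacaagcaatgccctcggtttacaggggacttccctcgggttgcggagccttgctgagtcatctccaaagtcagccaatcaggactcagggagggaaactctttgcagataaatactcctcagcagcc
Irgm2: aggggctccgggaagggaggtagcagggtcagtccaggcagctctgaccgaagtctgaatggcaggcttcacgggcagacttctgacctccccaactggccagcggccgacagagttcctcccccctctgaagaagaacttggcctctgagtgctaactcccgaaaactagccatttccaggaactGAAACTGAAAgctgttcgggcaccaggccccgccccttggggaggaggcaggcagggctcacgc
The match lay 120 bases before the start of Rsad2, 213 before Cxcl10 and 64 before Irgm2, and Ifit3 held 2, at 156 and 122 bases. The GAAA pair was found in 978 of 32851 RefSeq windows of the same length (2.98%). The sets were counted by gene, with a match in any of its windows, and not by window. The pair was found in 20 of 38 interferon-list members with a ratio and a window, and in 4 of the 6 that were called. Among called genes with a window, it was found in 9 of 71 called higher, which include those 4, and in 2 of 57 called lower. The RefSeq start of Irgm2 lies inside the deposited gene model (58199618 to 58222782), and the bases after it were not found in a GENCODE transcript of that gene, unlike those of the other windows printed. A match is a description of letters, not a measured binding site. Cxcl10, the chemokine that draws CXCR3-bearing lymphocytes, had 9 and 25 reads untreated and 2457 and 3966 with LPS (untreated 1.45, 0.30 to 2.73). It was called higher among 12 chemokine genes, of which Ccl2, the monocyte attractant, was called lower with 105 and 48 reads (-1.16, -1.68 to -0.65). Over all genes, 1.16% were called higher and 0.864% lower. Cxcl10 lay below 1 CPM untreated, where 13.4% of genes were called, and passed the filter on level through the LPS-treated libraries. Ccl2 lay between 1 and 5 CPM untreated, where 8.88% were called.

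Genes for the chains of the class II molecules had 0 to 5 reads in wild-type cells and more in knockout cells. H2-Aa, the alpha chain of I-A, had 0, 54, 0 and 8 reads. H2-Eb1, the beta chain of I-E, had 5, 56, 4 and 11, and H2-Ab1, the beta chain of I-A, had 0, 24, 0 and 8. Untreated knockout was the highest library for each, at least 17.7-fold above wild type for H2-Aa and at least 7.85-fold for H2-Ab1. The H2-Eb1 ratio was 3.46 (2.15 to 5.14), and H2-Eb1 was the only member of the list that both passed the filter on level and was called.

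H2-Ea-ps, which the deposited annotation labels a pseudogene, had 0 and 33 reads untreated, at least 10.8-fold higher. Ciita, the transactivator that switches these genes on, had 3 and 24 reads untreated (2.97, 1.25 to 5.35) and 0 in both LPS-treated libraries. H2-Ob, a chain of the inhibitor of peptide loading, had 7 and 20 reads (1.49, 0.19 to 2.97), while its partner chain H2-Oa had 29 and 33 (0.16, -0.61 to 0.93). The peptide exchanger genes H2-DMb1 and H2-DMb2 had 2 and 3 reads and 10 and 8 reads. H2-Aa, H2-Ab1, H2-Ea-ps, Ciita and H2-Ob were all under the filter on level, with 0 to 54 reads per library. B cell markers were at 23 and 4 reads and dendritic cell markers at 60 and 74, with Itgax at 28 and 45, Batf3 at 0 and 1 and Ccr7 at 0 in both.

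Other genes of the pathway lay closer to 0. The invariant chain gene Cd74 had 3784 and 4773 reads (0.31, 0.25 to 0.37), H2-DMa, of the peptide exchanger, had 143 and 123 (-0.25, -0.61 to 0.11), and the protease gene Ctss had 5300 and 5847 (0.11, 0.06 to 0.17). Rfx5 and Rfxap, whose products sit on class II promoters, had ratios of 0.00 and -0.09. In the same stretch of chromosome 17, the class I loading genes Tap1, Tap2, Psmb8 and Psmb9 had ratios of 0.10, 0.03, -0.02 and -0.28. Over the list, 6 of the 9 members with a ratio were above 0, with a median of 0.13.

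The class II promoters are shown for the Y box, the inverted CCAAT sequence that factor NF-Y binds. Capitals mark CTGATTGG, whose reverse strand reads CCAATCAG, in the 250 bases before H2-Aa (chr17:34287824-34288073, minus strand) and H2-Eb1 (chr17:34305617-34305866, plus strand).
H2-Aa: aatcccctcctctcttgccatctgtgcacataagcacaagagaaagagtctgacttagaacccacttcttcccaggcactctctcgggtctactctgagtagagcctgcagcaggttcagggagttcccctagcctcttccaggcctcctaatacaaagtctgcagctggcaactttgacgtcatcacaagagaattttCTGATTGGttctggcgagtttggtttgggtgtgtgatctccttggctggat
H2-Eb1: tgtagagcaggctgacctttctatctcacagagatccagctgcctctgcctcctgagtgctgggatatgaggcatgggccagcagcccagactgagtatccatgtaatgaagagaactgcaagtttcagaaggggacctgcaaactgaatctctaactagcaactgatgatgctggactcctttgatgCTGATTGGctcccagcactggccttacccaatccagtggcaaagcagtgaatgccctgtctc
The box lay 51 bases before the start of H2-Aa and 62 bases before that of H2-Eb1. CTGATTGG on either strand was found in 1258 of 32851 windows (3.83%). Counted by gene, it was found in 4 of 12 class II list members with a window. Among called genes with a window, it was found in 6 of 71 called higher and 5 of 57 called lower.

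Immediate early factors, which are switched on within minutes of a stimulus, lay mostly below 0, unlike Egr1. Of 23 members with a ratio, 8 were above 0, with a median of -0.16 untreated and 0.29 with LPS. Egr1 was called higher and 3 were called lower (background 0.864%). Fos, a subunit of AP-1, had 176 and 84 reads untreated and 227 and 140 with LPS (-1.10, -1.49 to -0.71). The orphan nuclear receptor gene Nr4a1 had 21 and 2 reads untreated and 16 and 65 with LPS (-3.42, -6.56 to -1.39), so the knockout library was the lower untreated and the higher with LPS. Its relative Nr4a2 had 108 and 55 reads untreated and 60 and 87 with LPS (-1.002, -1.50 to -0.52), and its call was lost with scaling by total counts (-0.99). Nr4a1 lay below 1 CPM untreated, where 13.4% of all genes were called, and passed the filter on level through the LPS-treated knockout library. Nr4a2 lay between 1 and 5 CPM untreated, where 8.88% were called.

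The AP-1 genes Fosl2 and Fosl1 had 1301 and 681 reads (-0.96, -1.10 to -0.83) and 161 and 93 reads (-0.82, -1.20 to -0.44), both short of 2-fold. Jun had a ratio of 0.03, and the Egr1 relatives Egr2 and Egr3 had 0.25 (-0.05 to 0.55) and -0.39 (-0.70 to -0.09). Of 15 MAP kinase phosphatases and ERK feedback genes, Etv4, an ETS factor, was called higher at 19 and 40 reads (1.05, 0.22 to 1.92), and Dusp8, a phosphatase of JNK and p38, lower at 27 and 12 (-1.20, -2.31 to -0.17). Both lay between 1 and 5 CPM untreated, where 8.88% of all genes were called.

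Genes of phagocytosis, adhesion and cell shape gave scattered calls. Over all genes, 1.16% were called higher and 0.864% lower. Of 20 Fc receptor and proximal signalling genes, 12 were above 0 with a median of 0.16, and Fcgr2b was among those called higher. The Src-family kinase gene Fgr had 384 and 735 reads (0.91, 0.73 to 1.09). The activating receptor genes Fcgr1 and Fcgr3 had ratios of -0.26 (-0.35 to -0.17) and 0.28 (-0.01 to 0.58). Of 25 integrins and adhesion genes, Itgal and F11r were called higher and Pecam1, a homophilic adhesion receptor, lower with 158 and 53 reads (-1.60, -2.08 to -1.15), and the median was -0.002.

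Activators of the GTPase Rac were among the genes called lower. Tiam1, an activator of Rac, had 62 and 12 reads untreated and 64 and 22 with LPS (-2.40, -3.43 to -1.49). Dock4, also a Rac activator, had 123 and 48 reads untreated and 335 and 324 with LPS (-1.39, -1.90 to -0.89). Tiam1 was lower in both pairs, whereas Dock4 had an LPS ratio of -0.12. Of 33 cathepsins and lysosomal enzymes, Ctse was called higher (15 and 40 reads, 1.39, 0.50 to 2.35) and Ctsh, Npl and Acp5 lower (backgrounds 1.16% and 0.864%). Ctse and Acp5 lay between 1 and 5 CPM untreated, where 8.88% of all genes were called. Acp5, the acid phosphatase of osteoclasts and macrophages, had 50 and 22 reads (-1.21, -2.01 to -0.46). The list median was -0.003.

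Lipid mediator and lymphoid genes gave calls in both directions, beside 1.16% called higher and 0.864% lower over all genes. Of 15 prostaglandin and leukotriene genes with a ratio, Cysltr1 was called higher, and Ptges2, a prostaglandin E synthase, was called lower with 622 and 312 reads (-1.02, -1.22 to -0.82) and an LPS ratio of -0.77. In the list of lymphoid genes, chosen with earlier results of these data known, 16 had a ratio. Of these, Gypc, Acap1 and Cd5 were called higher, and their number is not a result about lymphoid genes. Cd5, a receptor that dampens antigen receptor signals, had 35, 127, 84 and 1276 reads (1.83, 1.28 to 2.41). Cd27, a co-stimulatory receptor, was called lower at 26 and 13 reads (-1.03, -2.11 to -0.02). Both Cd5 and Cd27 lay between 1 and 5 CPM untreated, where 8.88% of all genes were called. The summed T cell markers stood at 119 and 113 reads. Of 23 protease inhibitor and secreted factor genes with a ratio, 9 were above 0, with a median of -0.09. Among them the protease inhibitor genes Slpi and Serpina3g were called higher, the latter with 138 and 301 reads (1.10, 0.80 to 1.40) and an LPS ratio of 1.38.

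Genes of the processes in which the deleted protein is known to act were nearly level. Of 22 DNA end resection and repair partners, 1 was called: Xrcc5, the large Ku subunit, with 77 and 179 reads (1.19, 0.80 to 1.59). Its partner Xrcc6 had 1468 and 1451 reads (-0.04, -0.15 to 0.06). The resection genes Rbbp8, which encodes CtIP, and Mre11a had ratios of 0.10 and 0.04, and Rad50 and Nbn, also of the MRE11 complex, had -0.08 and -0.12. Their intervals all lay within -0.27 and 0.25. The list median was 0.07 untreated and 0.05 with LPS.

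Of 10 histone messenger processing genes, 0 were called, and Slbp, which binds the histone stem-loop, had 2023 and 2363 reads (0.20, 0.11 to 0.28). Of 64 replication-dependent histone genes, 2 had a ratio, and the 64 summed to 258 reads in wild type and 280 in knockout. These messengers lack a poly(A) tail and the libraries were polyadenylated RNA, so their level in the cells was not measured here. Of 37 hnRNP and SR proteins, 17 were above 0 and 0 were called, with a median of -0.005. The largest ratio among those at 5 CPM or more was that of Hnrnpa0, with 12819 and 9552 reads (-0.45, -0.49 to -0.41).

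Most metabolic and housekeeping lists held no or few called genes. Of 75 cytosolic ribosomal protein genes, 30 were above 0 with a median of -0.01, and only Rpl30 was called, with 504 and 1219 reads untreated and 757 and 289 with LPS (1.25, 1.10 to 1.40). Ribosomal protein genes have near-identical pseudogene copies, so the counting of Rpl30 reads is uncertain. Of 25 glycolysis and hypoxia genes, 6 were above 0 with a median of -0.08, and Adm, the hormone adrenomedullin, was called lower at 76 and 36 reads (-1.11, -1.72 to -0.52). No member was called among 14 mitochondrially encoded genes, 25 cell cycle genes, 29 genes of cholesterol and fatty acid metabolism, 18 NRF2 target and iron genes, 27 solute carriers and 9 complement genes. Their medians lay between -0.07 and 0.13. Scd1, the stearoyl-CoA desaturase, had 378 and 586 reads (0.60, 0.42 to 0.79), and the ferroxidase gene Cp had 839 and 1306 (0.61, 0.48 to 0.74), both under 2-fold.

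Further lists held at most 1 call each, beside 1.16% called higher and 0.864% lower over all genes. Apart from that of Rab15, these calls lay below 5 CPM untreated. Of 33 cytokine receptors, and of 19 p53 targets in which it is also listed, the death receptor gene Fas was called higher at 4 and 14 reads (1.78, 0.11 to 3.84). Of 15 scavenger and lectin receptors, Msr1, a receptor for modified lipoproteins, was called higher at 10 and 40 reads (1.97, 0.95 to 3.14). Of 15 chemoattractant receptors, the chemokine receptor gene Ccr1 was called lower at 16 and 6 reads (-1.44, -3.08 to -0.02). Of 27 macrophage identity genes Ms4a6c was called lower (86 and 37 reads, -1.24, -1.84 to -0.67), and of 16 osteoclast differentiation genes Acp5. Of 41 Rab GTPases Rab15 was called lower, and of 17 regulators of G protein signalling Rgs16. Of 18 class I and peptide loading genes, 11 were above 0 with a median of 0.07, and none was called. The medians of these lists lay between -0.10 and 0.07.

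Several called genes were neighbours on a chromosome. In 15 cases, genes next to each other among those with a ratio were both called: 10 pairs were higher together, 3 lower together and 2 opposite. Of these pairs, 2 lie on an unplaced scaffold, several are pseudogenes or predicted genes, and the widest gap was 1093303 bases. How many such pairs would arise without regard to position was not computed. Stretches around some of these were then examined, chosen after the values were seen. On chromosome 1 (GRCm38), Fc receptor genes such as Fcgr2b (170958617 to 170976547) lie near those of the SLAM family such as Cd84 (171839697 to 171890718). Of 24 genes with at least 30 reads in this stretch, 18 were within 1.5-fold. Besides Fcgr2b and Cd84, Cd48, a SLAM-family ligand, had 25 and 68 reads (1.42, 0.74 to 2.14), and F11r, the junctional adhesion molecule JAM-A, had 19 and 57 (1.56, 0.79 to 2.39). Itln1, the lectin intelectin, had 1 and 24 reads (4.56, 1.94 to 9.92), under the filter on level.

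The LPS ratios of these genes were of the same sign, at 1.33 for Cd48, 1.95 for F11r and 3.10 for Itln1. Genes lying among them had smaller ratios and were not called. Ly9, another SLAM receptor, had 686 and 849 reads (0.28, 0.13 to 0.43), Fcer1g, the shared Fc receptor gamma chain, had 1925 and 2203 (0.17, 0.08 to 0.26), and Usf1, a transcription factor gene, had 823 and 887 (0.08, -0.06 to 0.22).

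Also on chromosome 1, Npl, a lyase that breaks down sialic acid (153503015 to 153550045), and Rgs16, a brake on G protein signalling (153740349 to 153745468), were lower together. Npl had 465 and 165 reads untreated and 759 and 157 with LPS (-1.52, -1.79 to -1.26), and Rgs16 had 107 and 22 untreated and 2720 and 847 with LPS (-2.31, -3.04 to -1.64). Nearby, the helicase gene Dhx9 had a ratio of 0.07. On chromosome 5, Klf3, a transcriptional repressor, had 6 and 42 reads (2.78, 1.54 to 4.30), and Tlr1, a receptor for bacterial lipoproteins, had 17 and 63 untreated and 101 and 349 with LPS (1.86, 1.07 to 2.73). Its neighbour Tlr6 had 39 and 55 reads (0.47, -0.15 to 1.10).

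On chromosome 14, 4 of 5 genes with at least 10 untreated reads within 55540266 to 55591113 had ratios between -1.11 and -0.87. These bounds were chosen after the values were seen, and beyond them Irf9 (55603571 to 55610030) had a ratio of 0.56 (0.40 to 0.73). Pck2, the mitochondrial PEP carboxykinase, had 729 and 407 reads (-0.87, -1.05 to -0.69), and Dcaf11, a receptor of a ubiquitin ligase, had 688 and 324 (-1.11, -1.31 to -0.92). Psme1, which encodes the alpha subunit of the proteasome activator PA28, had 1760 and 955 reads untreated and 4508 and 2441 with LPS (-0.91, -1.03 to -0.80). Emc9, of the complex that inserts proteins into the endoplasmic reticulum membrane, had 69 and 35 reads (-1.01, -1.64 to -0.40), a call lost with scaling by total counts (-0.996). Its gene model overlaps that of Psme1 by a few bases on the other strand. Psme2, the beta subunit of the same activator, had 1184 and 1254 reads untreated and 3965 in each LPS-treated library (0.05, -0.06 to 0.17), and the counting intervals of the PA28 subunit genes did not overlap. The LPS ratios were -0.73 for Pck2, -0.61 for Dcaf11, -0.95 for Psme1 and -1.45 for Emc9.

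**Figure D4:**
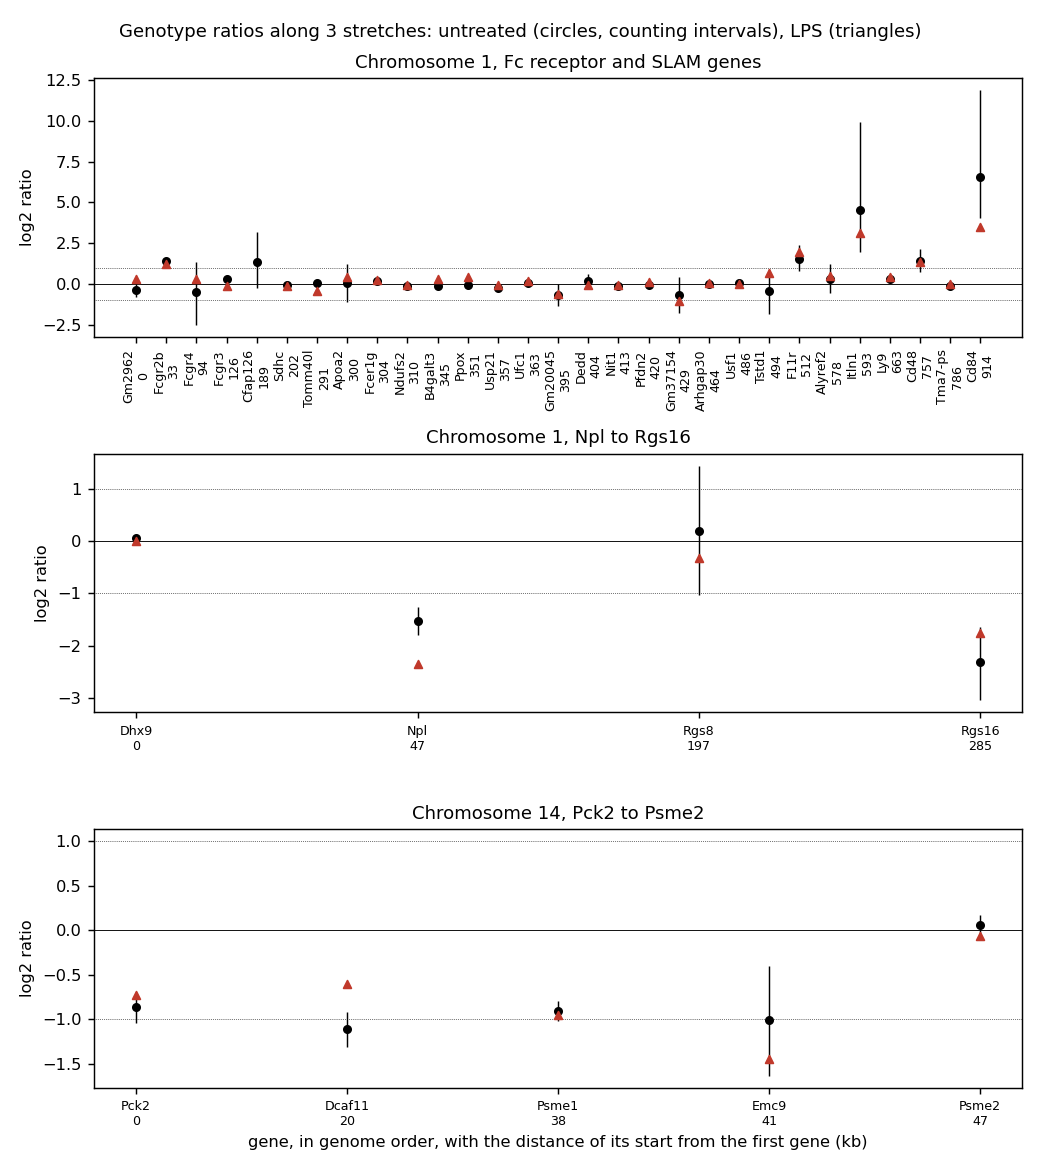
Log2 ratio of knockout to wild type (vertical axes) for genes with at least 10 untreated reads along 3 stretches, in genome order, with each gene's distance from the first in kb. Circles with 95% counting intervals are untreated and red triangles LPS-treated, and dotted lines mark 2-fold. In the upper panel Cd84, Itln1, Cd48, F11r and Fcgr2b stand above genes near 0, in the middle panel Npl and Rgs16 stand below 0 in both treatments, and in the lower panel Psme2 alone lies at 0.05.

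At the end of the gamma protocadherin cluster on chromosome 18, neighbouring variants went opposite ways. Pcdhgc3 had 0, 228, 0 and 294 reads, at least 74.5-fold higher untreated. Pcdhgc5 had 143, 53, 118 and 39 reads (-1.46, -1.94 to -0.996). These adhesion genes share their last exons, so gene-level counts can be split between them and each value alone is uncertain. Of 31 clustered protocadherins, these 2 were the members with a ratio. The next gene, Diaph1, had a ratio of 0.13. No chromosome stood off as a whole: over 20 chromosomes with at least 100 genes, medians lay between -0.01 and 0.04.

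The LPS-treated pair gave a view of the same genotypes in separate libraries. There, 1.66% of genes were called higher in knockout and 1.83% lower (3.49% in either direction). Of 133 genes called higher untreated that had a ratio with LPS, 101 were above 0 there, 40 were called higher, 2 lower and 91 not called, with a median LPS ratio of 0.56. Of 100 genes called lower untreated, 76 were below 0 with LPS, 38 were called lower, 5 higher and 57 not called, with a median of -0.77. A gene called in 1 pair only was not thereby shown to differ between treatments.

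**Figure D5:**
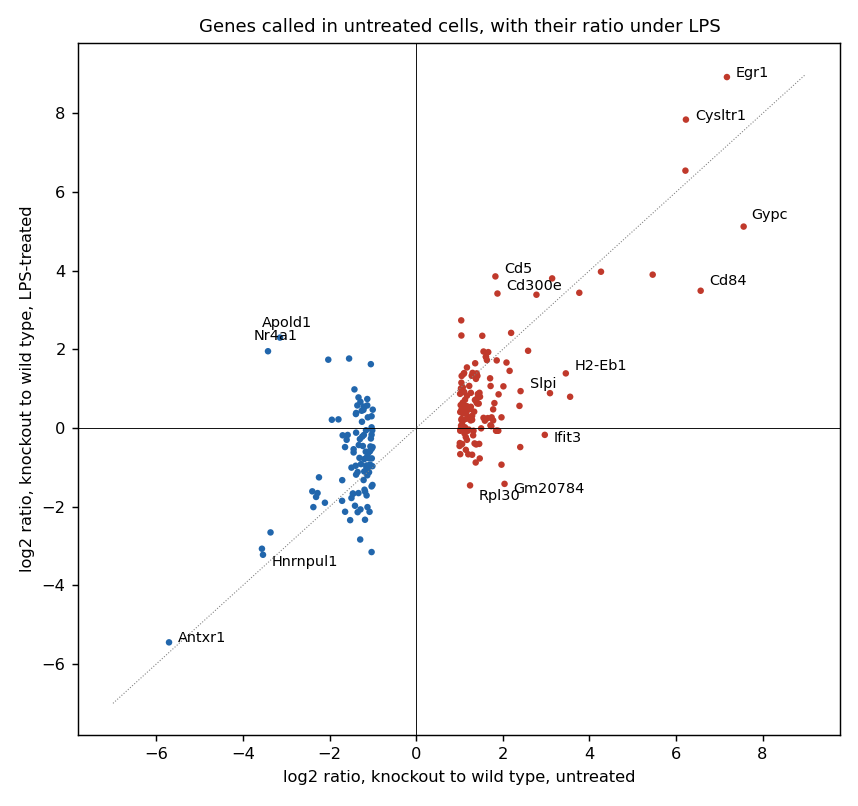
Log2 ratios of knockout to wild type, untreated (horizontal) and LPS-treated (vertical), for the genes called in untreated cells that had a ratio with LPS, red where called higher untreated and blue where called lower. The dotted line marks equal ratios. Egr1, Gypc and Cysltr1 lie at the far upper right and Antxr1 at the far lower left, Nr4a1 and Apold1 lie at the upper left and Rpl30 and Gm20784 at the lower right.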

How the data were processed

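RNA from 4 cultures of RAW 264.7 cells was sequenced, 1 library per group. Tools listed in the submitters' processing notes are CASAVA 1.8, HISAT2 2.0.5 and featureCounts 1.5.0-p3, with GRCm38 and mm10 as builds. The annotation version and whether counting used strand are not given in the sources used here, so reads of overlapping or antisense genes cannot be told apart. The authors deposited whole-number read counts per gene, not normalized, and these were used for every ratio. The deposited FPKM, which within a library are proportional to count over gene length, served only as an alternative. Symbols, biotypes and gene coordinates are those of the deposited tables.

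TMM factors were computed with edgeR 4.0.16 in R 4.3.3 over genes with a mean of at least 1 CPM, and were 1.11, 1.12, 0.901 and 0.899, in the order in which 4 read counts are listed. Total counts of the LPS-treated libraries were 17045432 and 17909549. The calling rule was tested on simulated data. Other settings tried were size factors of DESeq2 1.42.0, scaling by total counts, other filters and folds, the FPKM, and an additive genotype and LPS model (edgeR quasi-likelihood, Benjamini-Hochberg), which takes the treatments as replicates. No p-value is given, as there is 1 library per group.

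The members and the 40 gene lists and 10 marker lists were chosen with earlier results of these data known. Named genes were Hnrnpul1, the 12 highest and 12 lowest called protein-coding genes and the 3 highest and lowest of other biotypes at 5 CPM or more, all called genes at 50 CPM or more, up to 4 called members per list (or 2 uncalled), class II members, and called neighbours. Other genes named, such as uncalled partners in a list, were chosen after their values were seen. Promoters and their coordinates come from RefSeq (GRCm38.p6), matched by symbol. Some results are not reported here.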

Additional observations from a re-analysis of the deposited data

Results flagged for a closer look

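For 7 genes the genotype ratio was called in opposite directions untreated and with LPS. Values below are the LPS-treated log2 ratio minus the untreated one, with a counting interval where given. With 1 library per group, the difference between treatments was not tested against replicate spread.

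Of these, 5 were lower in knockout untreated and higher with LPS. Apold1, an early response gene of vascular cells, had 26 and 3 reads in wild type and knockout untreated and 12 and 62 with LPS, a difference of 5.44 (3.50 to 7.39). Nr4a1 differed by 5.37 (3.14 to 7.61), on 21 and 2 reads against 16 and 65. The 3 others, on 6 to 152 reads per library, were Gm44154 (3.77), Gm6257 (3.32) and 1700047I17Rik2 (2.67).

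The reverse was seen for Rpl30 and Gm20784. Rpl30, a ribosomal protein of the large subunit, had 504 and 1219 reads untreated and 757 and 289 with LPS, a difference of -2.7 (-2.95 to -2.46). Gm20784 had 5 and 21 reads untreated and 51 and 20 with LPS, a difference of -3.46 (-5.05 to -1.87).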

How the results depend on the processing

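With 134 genes higher, 100 lower and 97.8% of genes at 10 CPM or more within 1.5-fold, the counts moved by over 1.5 times under these alternatives. Without a filter on level 303 were higher and 262 lower, and 80.4% of all genes were within 1.5-fold. With a mean of at least 10 CPM 27 were higher and 16 lower. With a 1.5-fold rule 316 were higher and 253 lower, and with the whole interval beyond 2-fold 28 and 20. On the deposited FPKM as log2(value + 1), a scale that shrinks the ratios of low genes, 61 were higher and 46 lower and the share within 1.5-fold was 98.9%. Filtering on the untreated libraries alone put that share at 98.4%. The additive model, which averages the genotype ratio over both treatments (adjusted p under 0.05 and 2-fold), gave 58 higher and 29 lower, and 62 of the 234 called genes passed its p threshold of 0.05. DESeq2 size factors gave 134 and 100, total counts 139 and 96.

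Of 1287 values of 170 named genes under alternatives, 1241 kept their side of the threshold, 45 did not, 1 uncalled value moved beyond its counting interval (Pck2, -0.68 on log2(FPKM + 1)), and 0 changed direction. Of the 45, 37 were on log2(FPKM + 1), 6 on log2(FPKM + 0.1) and 2 with total counts. Ifit3, Rsad2, Irgm2, Slfn5, Ifi44 and Ifi44l were among the 37, and Rsad2 and Irgm2 among the 6. Settings that change only which genes are kept leave the ratio of a named gene as it was, so agreement there was fixed in advance. Other scalings shift every ratio by the same amount. Of 358 list medians, 1 moved: IFIT and other effectors stood at 0.15 on log2(FPKM + 1).

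A filter of 10 CPM gives no separate value for the share within 1.5-fold, which uses it already. Replicates could not be paired, because each group held 1 library. The additive model pairs the genotypes within treatment, with the treatment as a block and 1 residual degree of freedom. With 1 library per group, no replicate could be left out. Depth limits calls below 5 CPM, where most calls lay.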

Other observations

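Outside the groups above, a set of scarce genes was read in 1 genotype only. Of all genes in the tables, 23 had 0 reads in untreated wild type and at least 10 in untreated knockout, and 7 had the reverse. The homeobox gene Lhx5 had 0, 27, 0 and 44 reads (wild type and knockout without LPS, then with LPS), at least 8.83-fold higher untreated. Cnksr3, a scaffold of sodium transport signalling, had 0, 21, 0 and 13 (at least 6.87-fold), and the long non-coding RNA gene Bvht 0, 17, 0 and 8 (at least 5.56-fold). In the other direction, Sec16b, of endoplasmic reticulum exit sites, had 36, 0, 21 and 0 reads (at least 12.2-fold lower), and the alcohol dehydrogenase gene Adh4 had 19, 0, 14 and 0 (at least 6.46-fold lower). These 5 genes were chosen after their values were seen.

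Among genes that do not encode proteins, Gm10705 had 39 and 339 reads untreated and 117 and 227 with LPS (3.09, 2.61 to 3.61), and 1700001L05Rik had 81 and 184 (1.16, 0.77 to 1.55). Gm44126 had 138 and 60 reads (-1.23), Gm4149 191 and 84 (-1.21) and Gm9824 724 and 358 (-1.04). Of 530 processed pseudogenes, 13 were called higher and 13 lower (4.91%), against 1.65% of 10272 protein-coding genes. Reads of such copies can come from their parent genes, and the counts were not resolved between them. The sugar-phosphate transporter gene Slc37a2, under 2-fold, had 4977 and 8512 reads untreated (0.75, 0.70 to 0.80) and 1427 and 1127 with LPS.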
